A study of Homo sapiens with 6 samples.

Results

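The canonical Wnt target genes CCND1, MYC, AXIN2, NKD1, TCF7, RNF43, ZNRF3, LGR5, ASCL2 and LEF1 were examined in HCT116 cells, a human colorectal carcinoma line. These 10 genes were chosen by name, and all 10 were found among the 38041 genes of the expression table. Of them, 7 entered the test, which required an FPKM (fragments per kilobase of exon, scaled to the mapped reads of a library) of 1 or more in 3 or more of the 6 libraries. LGR5, ASCL2 and LEF1 did not, and are described by their values. The overEXP group was HCT116 carrying an EPHX2 lentivirus after puromycin selection, and the NC group was the same line with an empty vector, with 3 libraries in each of the 2 groups. EPHX2 encodes soluble epoxide hydrolase, which converts epoxy fatty acids to diols. Titles and the study's methods give an empty vector for NC, although other label fields describe these cells as untreated or normally cultured. The study describes 3 cell lines per group without saying whether they were derived independently, so the error behind each p-value is that among the libraries sequenced, and how much of it is technical was not tested.

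Wnt ligands keep beta-catenin from being phosphorylated and destroyed by a complex built on Axin and APC. Stabilized beta-catenin enters the nucleus, binds the DNA-bound TCF and LEF factors and turns on target genes, several of which feed back to restrain the pathway. In the crypts of the intestine this program maintains stem cells, and in most colorectal carcinomas it is permanently active. HCT116 cells are known for a small in-frame deletion in an allele of CTNNB1, the beta-catenin gene, which removes a serine that is phosphorylated before destruction, and for a truncating change in RNF43. The deposited values carry no sequence, so neither change was checked here.

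EPHX2, the gene delivered, checked the labels: it had an FPKM of 157, 162 and 181 in overEXP replicates 1 to 3, against at most 1.96 in NC. The depth in reads is unknown, and relative depth was estimated from single-exon genes. In each library the most frequent FPKM times length within a preset window was taken as the step. Per library, 18 to 32 genes were at this value, of 108 to 189 in the window. These steps placed the relative depth of the libraries between 0.806 (NC replicate 1) and 1 (NC replicate 2). Library overEXP replicate 2 stood apart. Of 27 markers of differentiated colon epithelium, 22 were at an FPKM of at least 1 and at least 1.5 times the highest of the other 5 libraries there, and 16 were under 0.1 in all the others. Their summed FPKM was 422 in overEXP replicate 2, 21.8 and 20.0 in overEXP replicates 1 and 3, and 17.4 to 18.3 in NC. None of the 27 was at 0 in overEXP replicate 2, against 14 and 13 in overEXP replicates 1 and 3 and 7 to 13 in the NC libraries, and TFF3, TFF1 and PHGR1 were at 0 in all 5 others. Summed fibroblast markers (8 genes) were 12.9 in that library, 2.49 to 3.82 in the other overEXP libraries and 2.37 to 2.84 in NC. By the same 2 criteria, 4 of these 8 stood out there and 1 was under 0.1 in all the others. COL1A1, read in every library, gave 5.72 of the 12.9. Summed blood cell markers (8 genes, among them the red cell genes HBB and HBA1) were 14.8, 5.71 to 8.16 and 7.74 to 8.57 in the same order. Of these 8, 1 stood out there and 0 were under 0.1 in all the others. The fold changes of the 7 genes tested are therefore given with and without overEXP replicate 2.

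Promoter sequences from RefSeq (GRCh38.p14, 250 bases before to 50 bases after a start) were matched by symbol for RNF43, TCF7 and LEF1, 3 of the 10 genes, with 5 windows among them. They were searched for the core bound by TCF and LEF factors, spelled CTTTGAA or CTTTGAT, and with a thymine as the sixth letter CTTTGTA or CTTTGTT, on both strands. Of the 5 windows, 1 held a core, and 13.75% of all 35116 windows of this length did. It lay at the downstream TCF7 start, 50 bases before it and on the minus strand. That window (chr5:134123368-134123667, plus strand) is shown because TCF7 is both a target and a carrier of the signal, and the outer RNF43 window (chr17:58417485-58417784, minus strand) because RNF43 was 1 of the genes that set a library apart. Capitals mark the core.
TCF7: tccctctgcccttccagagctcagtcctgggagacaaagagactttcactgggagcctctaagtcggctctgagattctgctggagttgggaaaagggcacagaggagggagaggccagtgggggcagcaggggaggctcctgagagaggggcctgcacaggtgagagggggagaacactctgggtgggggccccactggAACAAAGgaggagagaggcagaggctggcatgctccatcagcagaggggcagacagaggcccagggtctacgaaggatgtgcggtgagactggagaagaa
RNF43: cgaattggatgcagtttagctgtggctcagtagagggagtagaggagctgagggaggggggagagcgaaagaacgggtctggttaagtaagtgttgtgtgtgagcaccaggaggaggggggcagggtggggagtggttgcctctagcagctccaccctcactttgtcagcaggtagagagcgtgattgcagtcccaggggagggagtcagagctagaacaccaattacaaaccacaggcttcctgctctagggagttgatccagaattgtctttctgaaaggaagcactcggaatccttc
A match describes these letters only, and its absence says nothing about a factor.

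Compared with the NC group, CCND1 was the only gene of the 7 tested to pass the test, and it was lower in overEXP cells. MYC also had every overEXP value under every NC value without passing. AXIN2, RNF43, LGR5 and ASCL2 were high in overEXP replicate 2 alone, and NKD1, TCF7 and ZNRF3 differed by less than their spread. Over all genes tested, 4.23% passed in either direction and 2.98% were lower, against 1 of these 7 genes. At an unadjusted p under 0.05 from limma, none of the 7 was higher and 2, CCND1 and MYC, were lower. Of all 12281 genes tested, 805 were higher and 2012 lower at that unadjusted threshold.

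**Figure D1:**
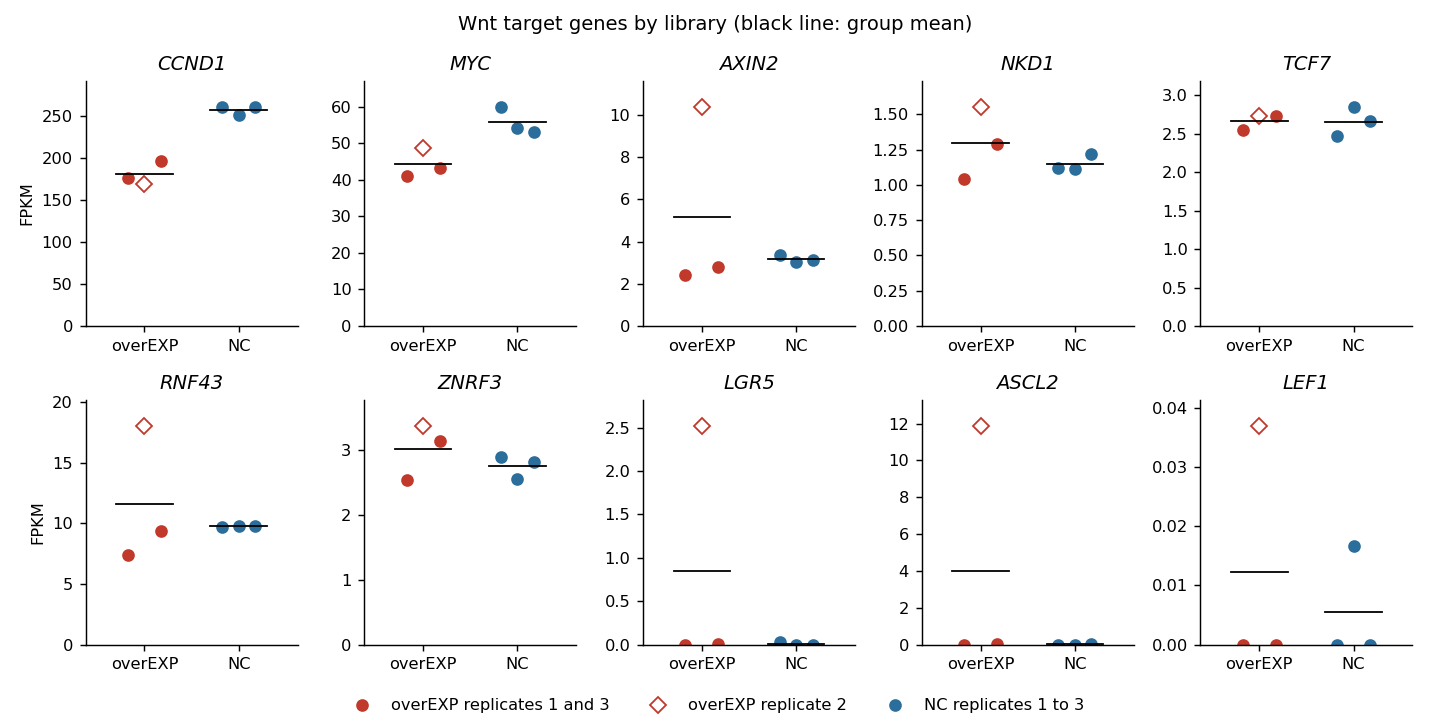
FPKM of the 10 Wnt target genes in each library, on axes that start at 0 and differ between genes, with overEXP left and NC right and a black line at each group mean. CCND1 and MYC are lower in every overEXP library, and AXIN2, RNF43, LGR5 and ASCL2 have their high value in overEXP replicate 2 (open diamond) alone.

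CCND1 and MYC are the growth outputs of the pathway. CCND1 (ENSG00000110092, GRCh38 chromosome 11, 69641156 to 69654474, plus strand, GENCODE v44, 5 exons) encodes cyclin D1, which activates CDK4 and CDK6 to move cells through the G1 phase. Its FPKM was 176, 169 and 197 in overEXP replicates 1 to 3, against 261, 252 and 260 in NC replicates 1 to 3. The groups did not overlap, and the lowest NC value lay well above the highest overEXP value. The means were 181 ± 14.7 in overEXP and 258 ± 5.13 in NC (SD, n = 3 each), so that overEXP cells held 0.701 times the NC level. On log2(FPKM + 1) the fold change was -0.51 (standard error 0.08, 95% interval -0.70 to -0.32, adjusted p = 0.0226 from limma). CCND1 was among the most abundant messages, at rank 94 of 12281 genes tested by NC mean, and it was the 247th most negative fold change of all.

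The CCND1 call held without overEXP replicate 1 or 3 (limma, adjusted p = 0.0451 and 0.0285) and was lost when any 1 of the other 4 libraries was left out. The log2 fold change was -0.46 without overEXP replicate 2 and did not pass (limma, adjusted p = 0.0651), and leaving out an NC library also ended the call (adjusted p = 0.0693 without NC replicate 1, 0.104 without NC replicate 2 and 0.106 without NC replicate 3). Its sign and size held throughout these fits, from -0.58 to -0.46 over the 6 fits that each leave out 1 library. LTO1 lies on the opposite strand and shares 497 exon bases with CCND1, but its FPKM was 1.93 to 2.65 in overEXP and 2.67 to 3.0 in NC.

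MYC (ENSG00000136997, chromosome 8, 127735434 to 127742951, plus strand, 3 exons) encodes a transcription factor of growth and ribosome production and is a classic target of TCF in colorectal cells. Its FPKM was 41.1, 48.7 and 43.4 in overEXP replicates 1 to 3, against 59.9, 54.2 and 53.2 in NC replicates 1 to 3. Every overEXP value was under every NC value, by a narrower margin than for CCND1. The means were 44.4 ± 3.86 in overEXP and 55.8 ± 3.60 in NC (SD, n = 3 each), a ratio of 0.796. The log2 fold change of -0.32 (standard error 0.08, 95% interval -0.52 to -0.13) did not pass (adjusted p = 0.0765 from limma). MYC reached -0.39 without overEXP replicate 2 (adjusted p = 0.0903). It passed only after rescaling to TPM, where every library has the same sum (log2 fold change -0.46, adjusted p = 0.0283). That rescaling moved the median of all genes to -0.17, and MYC lay -0.29 from this median, against -0.27 from the median of -0.05 before rescaling.

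By an exact permutation test of FPKM (two-sided) CCND1 and MYC each had p = 0.1, the smallest that 3 libraries against 3 allow. Groups without overlap were common: 2 of the 7 genes had them, both lower, where 30.9% of all genes tested had no overlap and 21.7% were lower without overlap.

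**Figure D2:**
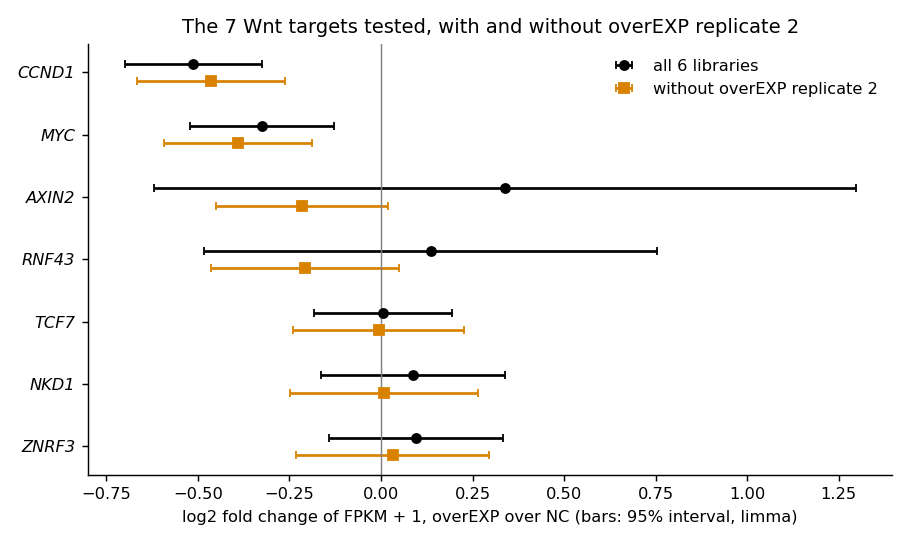
Log2 fold change of FPKM + 1, overEXP over NC, of the 7 genes tested, with 95% intervals from limma, for all 6 libraries (black) and without overEXP replicate 2 (orange). The intervals of CCND1 and MYC lie under 0 in both fits, and AXIN2 and RNF43 change sign, to -0.22 and -0.21.

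AXIN2 and NKD1 are negative feedback targets that act inside the cell. AXIN2 (ENSG00000168646, chromosome 17, 65528563 to 65561648, minus strand, 11 exons) encodes a scaffold of the destruction complex and is the target most often read as a gauge of beta-catenin activity. Its FPKM was 2.42, 10.4 and 2.78 in overEXP replicates 1 to 3, against 3.35, 3.04 and 3.12 in NC replicates 1 to 3. The value of overEXP replicate 2 was 3.09 times the highest of the other 5 libraries, while overEXP replicates 1 and 3 were both under all 3 NC values. With all libraries the log2 fold change was 0.34 (standard error 0.41, 95% interval -0.62 to 1.30, adjusted p = 0.654 from limma; exact permutation p = 1). Without overEXP replicate 2 it was -0.22 (standard error 0.10, 95% interval -0.45 to 0.02, adjusted p = 0.293). On the same strand ENSG00000266076, a protein-coding gene with no symbol, shares 1316 exon bases with AXIN2, at an FPKM of 0 to 0.10 in overEXP and 0 to 0.02 in NC. The direction of AXIN2 depended on 1 library, and it did not pass in either fit.

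NKD1 (ENSG00000140807, chromosome 16, 50548396 to 50649249, plus strand, 10 exons), whose product binds Dishevelled, had an FPKM of 1.04, 1.55 and 1.29 in overEXP and of 1.117, 1.11 and 1.22 in NC (replicates 1 to 3 in each). The groups overlapped, with overEXP replicate 2 again the highest. Its log2 fold change was 0.09 (95% interval -0.16 to 0.34, adjusted p = 0.656 from limma) and 0.01 without overEXP replicate 2 (adjusted p = 0.972). NKD1 was the lowest of the 7, above only 4.48% of the genes tested.

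RNF43 and ZNRF3 are paralogous membrane E3 ubiquitin ligases that remove Frizzled receptors from the cell surface, and R-spondins bound to LGR receptors block them. RNF43 (ENSG00000108375, chromosome 17, 58353676 to 58417595, minus strand, 10 exons) had an FPKM of 7.38, 18.0 and 9.36 in overEXP replicates 1 to 3, against 9.72, 9.75 and 9.80 in NC replicates 1 to 3. The NC values were almost equal (9.76 ± 0.04, SD, n = 3), and overEXP replicate 2 was 1.84 times the highest other library. Overlap between the groups came from that library alone, since overEXP replicates 1 and 3 lay under all NC values. The log2 fold change was 0.14 (standard error 0.27, 95% interval -0.48 to 0.75, adjusted p = 0.789 from limma) and -0.21 without overEXP replicate 2 (95% interval -0.46 to 0.05, adjusted p = 0.341). A protein-coding gene with no symbol, ENSG00000285897, shares 4326 exon bases with RNF43 on the same strand, so reads could be split between them, and its FPKM was 0.05 to 0.59 in overEXP and 0.04 to 0.26 in NC.

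ZNRF3 (ENSG00000183579, chromosome 22, 28883572 to 29057488, plus strand, 9 exons) did not share the RNF43 pattern. Its FPKM was 2.54, 3.37 and 3.14 in overEXP replicates 1 to 3, against 2.88, 2.54 and 2.82 in NC replicates 1 to 3. The groups overlapped, and overEXP replicate 2 was 1.07 times the highest other library. The log2 fold change was 0.10 (95% interval -0.14 to 0.33, adjusted p = 0.607 from limma) and 0.03 without overEXP replicate 2 (adjusted p = 0.90).

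LGR5 and ASCL2 mark the stem cells at the crypt base. LGR5 (ENSG00000139292, chromosome 12, 71439798 to 71586310, plus strand, 18 exons) is an R-spondin receptor, and ASCL2 (ENSG00000183734, chromosome 11, 2268498 to 2270588, minus strand, 2 exons) is a transcription factor needed for the stem cell state. LGR5 had an FPKM of 2.52 in overEXP replicate 2 and of 0 and 0.01 in overEXP replicates 1 and 3, against 0.02, 0 and 0 in NC replicates 1 to 3. ASCL2 had 11.9 in overEXP replicate 2 and 0 and 0.02 in overEXP replicates 1 and 3, against 0, 0 and 0.02 in NC. Outside overEXP replicate 2 both genes were listed at or near 0 in both groups. The groups overlapped (exact permutation test, p = 0.7 for LGR5 and 0.4 for ASCL2), and no group fold change is given because some libraries were at 0. TSPAN8, 1 of the 27 epithelial markers, overlaps LGR5 on the opposite strand and had an FPKM of 20.0 in overEXP replicate 2, 0 in the other overEXP libraries and 0.04 to 0.11 in NC. The 2 genes share no exon bases.

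Among the 7 genes tested, AXIN2 and RNF43 were at least 1.5 times higher in overEXP replicate 2 than in each other library, where 1.02% of the 12281 genes tested were. In each of the other 5 libraries none of the 7 stood out in this way, although overEXP replicate 1 held more such genes overall (189, against 125 in overEXP replicate 2). LGR5 and ASCL2 reached an FPKM of 1 in overEXP replicate 2 alone and are left out of this count. The epithelial marker sum was also highest in this library, at 422. Among the other 5 libraries, overEXP replicate 1 had the highest sum, 21.8, and the lowest AXIN2 (2.42) and RNF43 (7.38). The part of this sum in the levels of AXIN2, RNF43, LGR5 and ASCL2 was not tested.

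TCF7 and LEF1 encode the DNA-binding factors through which beta-catenin acts, and both are targets as well. TCF7 (ENSG00000081059, chromosome 5, 134114681 to 134151865, plus strand, 10 exons) had an FPKM of 2.55, 2.73 and 2.73 in overEXP replicates 1 to 3, against 2.47, 2.84 and 2.66 in NC replicates 1 to 3. Its groups overlapped fully, and overEXP replicate 2 was within the range of the others. The log2 fold change was 0.01 (95% interval -0.18 to 0.20, adjusted p = 0.971 from limma) and -0.01 without overEXP replicate 2 (adjusted p = 0.979), and after rescaling to TPM it was -0.10, also without passing. TCF7 shares 210 exon bases with SKP1 on the opposite strand, whose FPKM was 9.29 to 9.82 in overEXP and 9.55 to 9.91 in NC. LEF1 (ENSG00000138795, chromosome 4, 108047545 to 108168956, minus strand, 12 exons) was listed at 0 in overEXP replicates 1 and 3 and in NC replicates 1 and 3, with 0.04 in overEXP replicate 2 and 0.02 in NC replicate 2. It was the only 1 of the 10 genes under an FPKM of 1 in every library. Whether the library kit keeps strand is not given in the sources used here, so reads of overlapping genes on opposite strands may not be told apart.

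By level, CCND1 led in both groups and MYC followed, each without overlap with the next gene. RNF43 came next in both. In NC the order went on with AXIN2, ZNRF3, TCF7 and NKD1, where ZNRF3 and TCF7 overlapped and the other neighbors did not. LGR5, ASCL2 and LEF1 closed the NC order and overlapped one another. In overEXP, RNF43 overlapped AXIN2 because of overEXP replicate 2, and ASCL2 averaged 3.97 ± 6.85 and LGR5 0.844 ± 1.45 (SD, n = 3), which rest on that library.

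**Figure D3:**
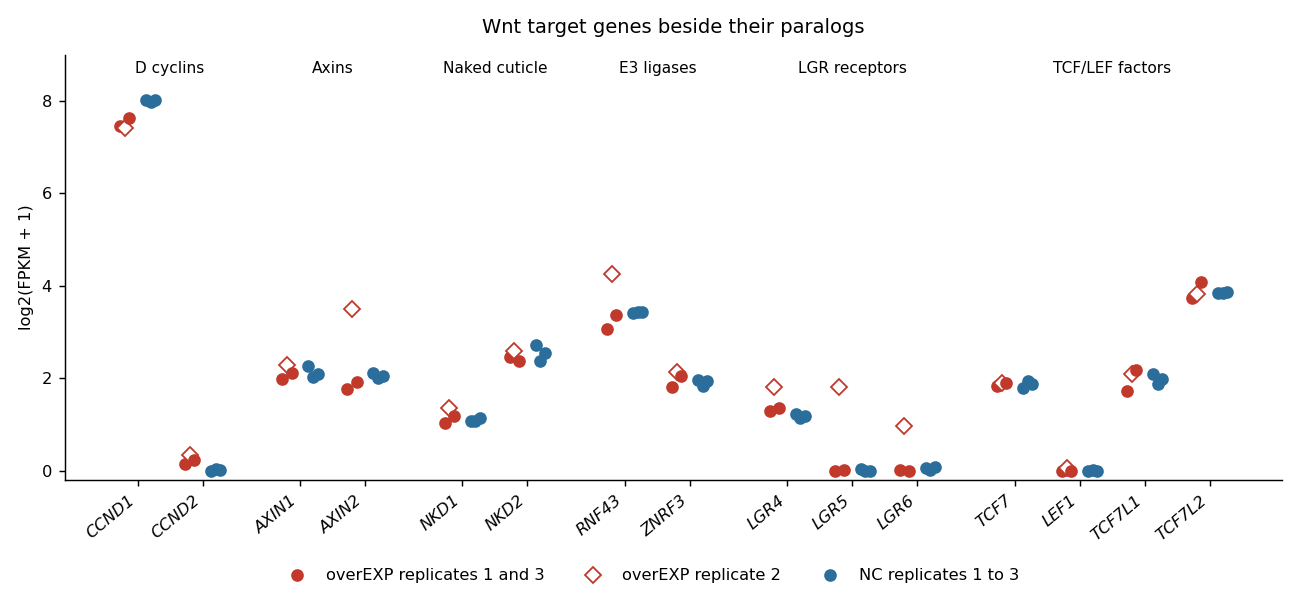
Log2(FPKM + 1) of Wnt target genes beside paralogs from the pathway lists, with overEXP left (replicate 2 as an open diamond) and NC right. CCND1 is far above CCND2, TCF7L2 is the highest TCF factor, and AXIN2, RNF43 and all 3 LGR receptors have their highest value in overEXP replicate 2.

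Paralogs were set beside the targets, and family members outside the lists were not read. They come from the pathway lists and, apart from TCF7L2, were picked for naming after their values were seen. CCND2, the other D cyclin listed, had an FPKM of 0.11 to 0.26 in overEXP and 0 to 0.03 in NC. TCF7L2, the main TCF factor of the intestinal epithelium, had 12.3, 13.2 and 16.1 in overEXP, against 13.3, 13.5 and 13.7 in NC (log2 fold change 0.03, adjusted p = 0.882 from limma, and 0.06 without overEXP replicate 2). TCF7L1 had 2.31 to 3.55 in overEXP and 2.66 to 3.24 in NC. AXIN1, the constitutive Axin that is not a standard target, had 2.97, 3.86 and 3.31 in overEXP, against 3.81, 3.07 and 3.25 in NC, and overEXP replicate 2 was 1.01 times the highest other library, against 3.09 times for AXIN2. NKD2 had 4.23 to 5.05 in overEXP and 4.17 to 5.62 in NC, in each library above NKD1. Of the LGR receptors, LGR4 was the one read in every library, at 1.44, 2.52 and 1.56 in overEXP and 1.36, 1.20 and 1.27 in NC. LGR6 had 0.94 in overEXP replicate 2, 0.01 and 0 in overEXP replicates 1 and 3, and 0.02 to 0.05 in NC.

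Upstream of the targets, CTNNB1 itself did not pass. Its FPKM was 19.3, 21.9 and 22.5 in overEXP replicates 1 to 3, against 21.1, 21.7 and 22.7 in NC replicates 1 to 3 (log2 fold change -0.04, adjusted p = 0.795 from limma), with -0.06 without overEXP replicate 2, and the sign turned to 0.03 with median-of-ratios scaling and 0.01 with quantile normalization. APC, the scaffold that is lost in most other colorectal carcinomas, had 2.76, 2.86 and 4.0 in overEXP, against 3.62, 3.55 and 3.72 in NC (log2 fold change -0.15, adjusted p = 0.483). The APC value moved with single overEXP libraries, to -0.0763 without replicate 1, -0.0939 without replicate 2 and -0.2811 without replicate 3, and did not pass in any of these fits.

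Over 7 lists of other Wnt pathway genes, 98 of 156 distinct genes were tested, 3 were lower and none was higher (limma; 15 lower and 8 higher at an unadjusted p under 0.05). At that unadjusted threshold, 2012 of all 12281 genes tested were lower and 805 higher. The count of 3 lower among 98 was near the share over all genes tested, of which 2.98% were lower, and is not a result about the lists. The unadjusted counts are not read as one either. Of the 7 target genes above, 1 was lower, and their median log2 fold change was 0.09, against -0.02 over the lists and -0.05 over all genes tested. Without overEXP replicate 2 the medians were -0.21, -0.04 and -0.06, and no gene of the 7 or of the lists passed.

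The 3 lower genes are given for their values. BCL9L, a coactivator that links beta-catenin to Pygopus, had an FPKM of 13.3, 14.0 and 16.6 in overEXP, against 23.3, 22.7 and 23.7 in NC, without overlap. Its log2 fold change was -0.64 (standard error 0.09, adjusted p = 0.0151 from limma), and without overEXP replicate 2 it was -0.61 (adjusted p = 0.0599). BCL9L was also the only gene of its list of 20 tested to pass. PORCN, which acylates Wnt ligands for secretion, had 2.47, 2.38 and 2.41 in overEXP, against 4.23, 3.40 and 3.43 in NC (log2 fold change -0.45, adjusted p = 0.0433, and 0.113 without overEXP replicate 2). CSNK1D, a casein kinase counted here with the destruction complex, had 10.2, 11.2 and 11.02 in overEXP, against 13.9, 13.7 and 13.8 in NC (log2 fold change -0.33, adjusted p = 0.0389, and 0.0939 without overEXP replicate 2). PORCN and CSNK1D did not pass when any 1 library was left out, and BCL9L also did not pass when any 1 NC library was left out (adjusted p = 0.0541 to 0.0758).

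**Figure D4:**
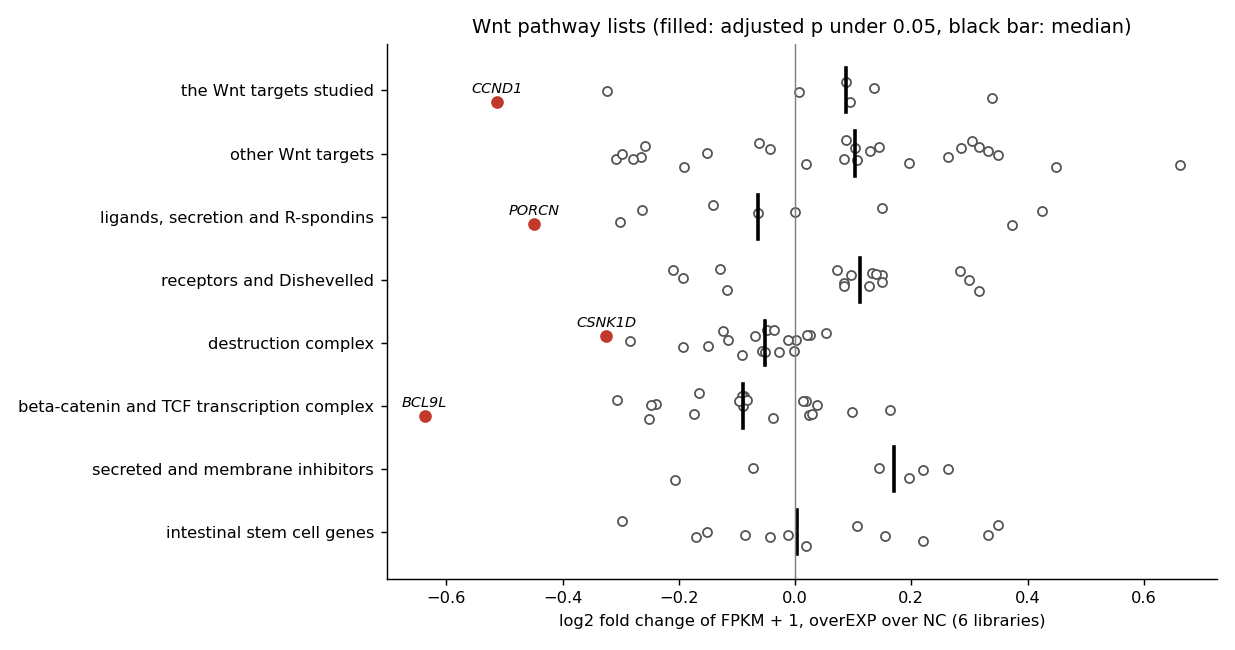
Log2 fold change of FPKM + 1, overEXP over NC, of the Wnt targets studied and of each pathway list, 1 circle per gene tested and a black bar at the median. The filled circles, CCND1, PORCN, CSNK1D and BCL9L, passed at an adjusted p under 0.05 and are all lower.

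Of 25 other Wnt targets tested, none passed (limma; 5 lower and 5 higher at an unadjusted p under 0.05), with a median log2 fold change of 0.10 and the smallest adjusted p at L1CAM, a neural adhesion molecule (6.06, 6.24 and 7.17 in overEXP, against 8.22, 7.98 and 8.02 in NC, log2 fold change -0.28, adjusted p = 0.0891), and the phosphatase CDC25A (log2 fold change -0.26, adjusted p = 0.104). Of all 12281 genes tested, 2012 were lower and 805 higher at an unadjusted p under 0.05 from limma. Without overEXP replicate 2 the median of the list was 0.09, L1CAM was at -0.26 and CDC25A at -0.19. The list held strongly expressed targets that overlapped between the groups: DKK1, a secreted inhibitor of the LRP5 and LRP6 coreceptors, had 195, 193 and 225 in overEXP, against 194, 180.0 and 179.6 in NC, and the hyaluronan receptor CD44 had 56.8, 55.4 and 64.2 in overEXP, against 56.5, 57.5 and 59.7 in NC. SOX9, a transcription factor of crypt progenitors, had 23.3, 27.0 and 26.7 in overEXP, against 29.8, 27.8 and 28.1 in NC, without overlap and without passing (log2 fold change -0.15, adjusted p = 0.285). BMP4 was lower without overlap (19.7, 16.5 and 19.3 in overEXP, against 24.0, 21.1 and 22.1 in NC). ID2 was higher without overlap (22.8, 23.8 and 26.6 in overEXP, against 22.2, 20.7 and 17.7 in NC). Neither passed (limma, adjusted p = 0.126 and 0.164). Of the 25, 7 were higher and 7 lower without overlap. Of all 12281 genes tested, 1134 were higher and 2666 lower without overlap, 30.9% in either direction. Whether the list differs from these shares was not tested. DKK1, CD44, SOX9, BMP4 and ID2 were picked after their values were seen.

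Of the other lists, none of 16 receptors and Dishevelled genes passed (limma; 2 higher and none lower at an unadjusted p under 0.05), with a median of 0.11 and the smallest adjusted p at FZD3 (log2 fold change 0.28, adjusted p = 0.135) and FZD7 (0.32, adjusted p = 0.164). Without overEXP replicate 2 the median was 0.09, FZD3 was at 0.29 and FZD7 was at 0.19 (adjusted p = 0.319). None of 6 secreted and membrane inhibitors passed (1 higher and none lower unadjusted), with a median of 0.17 and the smallest adjusted p at KREMEN1, a Dickkopf receptor (0.26, adjusted p = 0.0898), and TPBG (0.22, adjusted p = 0.247). The median was again 0.17 without overEXP replicate 2, with KREMEN1 and TPBG both at 0.28. None of 12 intestinal stem cell genes passed (1 higher and 1 lower unadjusted), with a median of 0.00, and EPHB3 and BMI1 had the smallest adjusted p (0.105 and 0.114, log2 fold changes 0.33 and -0.30, and 0.33 and -0.23 without overEXP replicate 2). Of 9 genes of ligands and their secretion, 1 was lower (median -0.06), of 19 of the destruction complex 1 was lower (median -0.05), and of 20 of the transcription complex 1 was lower (median -0.09). Over all genes tested 2.98% were lower, and 1 gene in lists of this size is read as no more than that. These 3 medians were -0.04, -0.06 and -0.08 without overEXP replicate 2. Lists share some genes. Beside the unadjusted counts of these lists, 805 of all 12281 genes tested were higher and 2012 lower at that threshold.

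Other genes of the lists also had their high value in overEXP replicate 2. Of the 98 tested, 4 (4.08%) were at least 1.5 times higher there than in each other library, namely EPHB2, ETS2, KRT23 and LGR4, against 1.02% of all genes tested. These 4 were named after their values were seen, and the part of the epithelial marker sum in their levels was not tested. In overEXP replicates 1 to 3 EPHB2, a receptor that positions crypt cells, had an FPKM of 2.51, 4.47 and 2.69, against 2.37, 2.22 and 2.16 in NC. KRT23 had 2.29, 9.46 and 2.86 in overEXP, against 2.63, 1.87 and 2.22 in NC. ETS2 had 6.77, 15.9 and 7.55 in overEXP, against 7.67, 6.91 and 7.65 in NC. No gene of the destruction complex (19 tested), transcription complex (20), ligands (9) or inhibitors (6) was 1.5 times higher in this way. With 1.02% of all genes tested doing so, an absence in lists of this size is not a result about them.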

How the data were processed

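RNA sequencing of 6 HCT116 libraries was used, 3 overEXP and 3 NC, grouped by the sample titles and matched to columns by name. Per the study's methods, FastQC served for read filtering and HISAT2 for mapping to GRCh38 (the submitters' processing notes give version 2.0.4). Transcripts were assembled per library by StringTie and combined by gffcompare. The authors deposited the resulting FPKM of each gene and library. Whether the kit keeps strand is not given in the sources used here. The deposited table also holds the authors' own fold change, log2 fold change, p-values and q-values, which were not used. FPKM keeps no read count, so no counting error is given, count-based tools were not applied, and the spread between libraries is the measure of precision.

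The 12281 of 38041 genes that reached an FPKM of 1 in 3 or more libraries were kept. Log2(FPKM + 1), which understates changes of low genes, was fitted with a variance trend (limma 3.58.1, R 4.3.3), and p-values (two-sided) were Benjamini-Hochberg adjusted over all genes tested at 0.05. Single genes were also compared by exact permutation of FPKM. The fit was tested on simulated data. Of the table's gene IDs, 37906 were found in GENCODE v44, which gave coordinates, exons and overlaps. The genes, lists and tests were chosen with earlier results of these data known. Named genes were the 10 targets, every list gene that passed, otherwise the 2 smallest adjusted p of a list, and CTNNB1, APC, TCF7L2 and EPHX2. Alternatives were a pseudocount of 0.1, no filter, 3 other scalings, no trend, a replicate block and leaving out each library.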

Additional observations from a re-analysis of the deposited data

How the results depend on the processing

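Over the 13 alternatives, CCND1 stayed lower and passed in 8 (log2 fold change -0.65 to -0.44), and MYC stayed lower and passed in 1. Counts of genes moved with the setting. Over all genes, 154 were higher and 366 lower. The counts were 3 and 2 without the filter, where 38041 genes were adjusted together, 95 and 866 after rescaling to TPM, and 21 to 383 lower and 23 to 199 higher over the fits that each leave out 1 library. Higher genes numbered 333 with median-of-ratios scaling and 330 with quantile normalization, where 51.7% and 54.5% of calls were lower, against 70.4% in the main comparison and 90.1% after rescaling to TPM. Of the Wnt targets studied, 0 were lower without the filter, 2 after rescaling to TPM and 0 to 1 when a library was left out. Of the pathway lists, 3 genes (JAG1, KREMEN1 and WNT16) were higher with median-of-ratios scaling and 3 with quantile normalization, 0 were lower without the filter, and 0 to 4 were lower when a library was left out.

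Signs near 0 turned. Rescaling to TPM gave -0.0095 for ZNRF3, -0.10 for TCF7 and -0.10 for TCF7L2. CTNNB1 was 0.0258 with median-of-ratios scaling and 0.0066 with quantile normalization. Over the fits without 1 library, AXIN2 ran from -0.22 to 0.65, RNF43 from -0.21 to 0.38, TCF7 from -0.0317 to 0.0429, CTNNB1 from -0.0795 to 0.0256 and TCF7L2 from -0.0740 to 0.10. The cause was not tested, except that AXIN2 and RNF43 turned only without overEXP replicate 2.

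CCND1 did not pass without the filter (adjusted p = 0.110) or without overEXP replicate 2 or any 1 NC library (0.0651 to 0.106). Without overEXP replicate 2, 48 genes were higher and 59 lower, and without NC replicate 3, 23 and 21.

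Same-numbered libraries are not stated to be paired. Their deviations from the group means correlated at 0.36, -0.02 and 0.37 across genes for replicates 1, 2 and 3. Differently numbered libraries of the 2 groups correlated at -0.42 to 0.20. Replicates 1 and 3 thus lay above that range and replicate 2 within it, and pairing was not tested. With a replicate block 118 genes were higher and 213 lower, CCND1 still passed (adjusted p = 0.0327), and 1 gene of the pathway lists, BCL9L, was lower.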
